A study of Mus musculus with 8 samples.

Results

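The epidermal growth factor (EGF) family genes described here are 6 ligands (Hbegf, Areg, Ereg, Btc, Tgfa and Nrg1), 3 receptors (Egfr, Erbb2 and Erbb3) and the receptor inhibitor Errfi1. They were taken from a list of 10 symbols by exact match in the deposited gene count table, and all 10 were found among its 18306 genes. Of these, 8 passed the filter on low counts and were tested among 11844 genes, and Areg and Erbb3 did not pass it. The cells were C3H10T1/2, an established mouse embryo line of mesenchymal character, used as a stand-in for progenitors of bone and fat. They were kept for 24 h in medium free of serum and then for a further 24 h with sphingosine 1-phosphate (S1P) at 5 µM, or with the vehicle, fatty acid-free albumin at 0.1%. There were 4 vehicle libraries (replicates 1 to 4) and 4 S1P libraries (replicates 5 to 8), all from this single line, without a genotype difference. Whether libraries of a group stem from separate cultures is not stated, so p-values describe the spread between these samples, which may be technical.

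Ligands of this family are made as membrane-anchored precursors, and proteases of the ADAM family cut them loose so that they can reach receptors on the same or neighbouring cells. Hbegf, Areg, Ereg, Btc and Tgfa encode ligands of EGFR, and Nrg1 encodes a neuregulin that binds ERBB3 or ERBB4. ERBB2 binds no ligand of its own and acts as a partner of the other receptors, ERBB3 has little kinase activity, and the product of Errfi1 (MIG6) binds active EGFR and blocks its kinase. Receptors coupled to G proteins, those for S1P among them, are known to activate EGFR in other cells through shed ligands, which is the textbook reason to look at these genes after S1P.

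The ligands share the EGF module, a fold held by paired cysteines that contacts the receptor. Open reading frames of the ligand genes in GENCODE M21 were searched for the family's cysteine spacing, with a pattern corrected from the planned pattern. The frame used need not be the longest of its gene. The pattern itself sets spacing, so finding a module is a description and not a test. The search found 1 module in each of the 6 ligands, with 6 cysteine codons. The stretches below run from the first to the last of these cysteines and are shown because they set out what separates the EGFR ligands from the neuregulin. They lie at coding bases 181 to 288 (Ereg), 205 to 312 (Btc), 136 to 243 (Tgfa), 415 to 522 (Areg) and 709 to 828 (Nrg1), and are written 5′ to 3′ on the coding strand. Capitals mark the cysteine codons.
Ereg: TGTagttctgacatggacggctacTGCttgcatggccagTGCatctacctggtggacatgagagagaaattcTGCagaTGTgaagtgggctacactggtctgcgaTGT
Btc: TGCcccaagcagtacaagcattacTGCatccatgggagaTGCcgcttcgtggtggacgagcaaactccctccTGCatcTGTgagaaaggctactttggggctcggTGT
Tgfa: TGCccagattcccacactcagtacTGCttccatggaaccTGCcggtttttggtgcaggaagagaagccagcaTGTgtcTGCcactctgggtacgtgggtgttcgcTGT
Areg: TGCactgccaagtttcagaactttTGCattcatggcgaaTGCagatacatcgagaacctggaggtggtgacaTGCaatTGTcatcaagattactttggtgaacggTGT
Nrg1: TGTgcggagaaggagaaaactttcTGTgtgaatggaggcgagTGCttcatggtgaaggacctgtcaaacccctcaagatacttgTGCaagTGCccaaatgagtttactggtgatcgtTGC
In Hbegf, Areg, Ereg, Btc and Tgfa the module spans 36 codons, with 7, 4, 10, 1 and 8 codons between successive cysteines. In Nrg1 it spans 40 codons, with gaps of 7, 5, 13, 1 and 8. Among the 5 EGFR ligands, which can be laid base on base without gaps, the 10 pairs were identical at 45.4% (Ereg and Tgfa) to 62% of their bases. The highest value was shared by Hbegf with Btc and by Btc with Tgfa.

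The 8 libraries held 13750303 to 13761544 counts each in the deposited table. These totals are nearly equal, and the sequencing depth behind them is unknown. Levels are given in CPM, counts scaled to library size with composition factors. A library at 0 could by counting error still hide 3 counts, or 0.213 to 0.223 CPM. All 12 mesenchymal markers examined were tested, among them Col1a2, a collagen chain. The epithelial keratin genes Krt14 and Krt19 had 0 to 1 counts per library. Of the 8 epithelial genes listed, 5 (Epcam, Krt5, Krt8, Krt18 and Cldn4) were absent from the deposited counts by symbol and Ensembl ID. Of 5 blood cell genes, Ptprc, Itgam, Cd3e and Emr1 had 0 to 3 counts and the macrophage gene Cd68 had 5 to 14. Cdh1, the epithelial cadherin, had 15 to 39 counts. Of 4 endothelial genes, Pecam1, Cdh5 and Kdr had 0 to 6 counts, while Tek, which encodes an angiopoietin receptor, was at 36.3 to 76.6 CPM in vehicle and 17.0 to 43.9 CPM after S1P. Vehicle replicate 4 stood apart, with the highest value of its group in 38.1% of tested genes and the lowest in 39.6%, so results that rest on it are also given without it.

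S1P was followed by a higher Hbegf transcript level and a lower Btc level, while the other 6 tested members did not pass. Each gene was tested with edgeR's quasi-likelihood test, and a gene was called at a Benjamini-Hochberg adjusted p under 0.05 over all tested genes. The count was 1 higher and 1 lower of 8 tested members, beside 8.5% of all 11844 genes called, 5.6% higher and 2.9% lower. At an unadjusted p under 0.05 there were 4 of 8 members, Hbegf, Btc, Nrg1 and Egfr, beside 24.9% of all genes. Values of the groups did not overlap for 3 of 8 members, Hbegf, Btc and Nrg1, beside 19.1% of all genes. With so few members these shares give no statement about the family as a whole. The median log2 fold change (S1P minus vehicle) was -0.24 over the members and -0.04 over all tested genes.

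**Figure D1:**
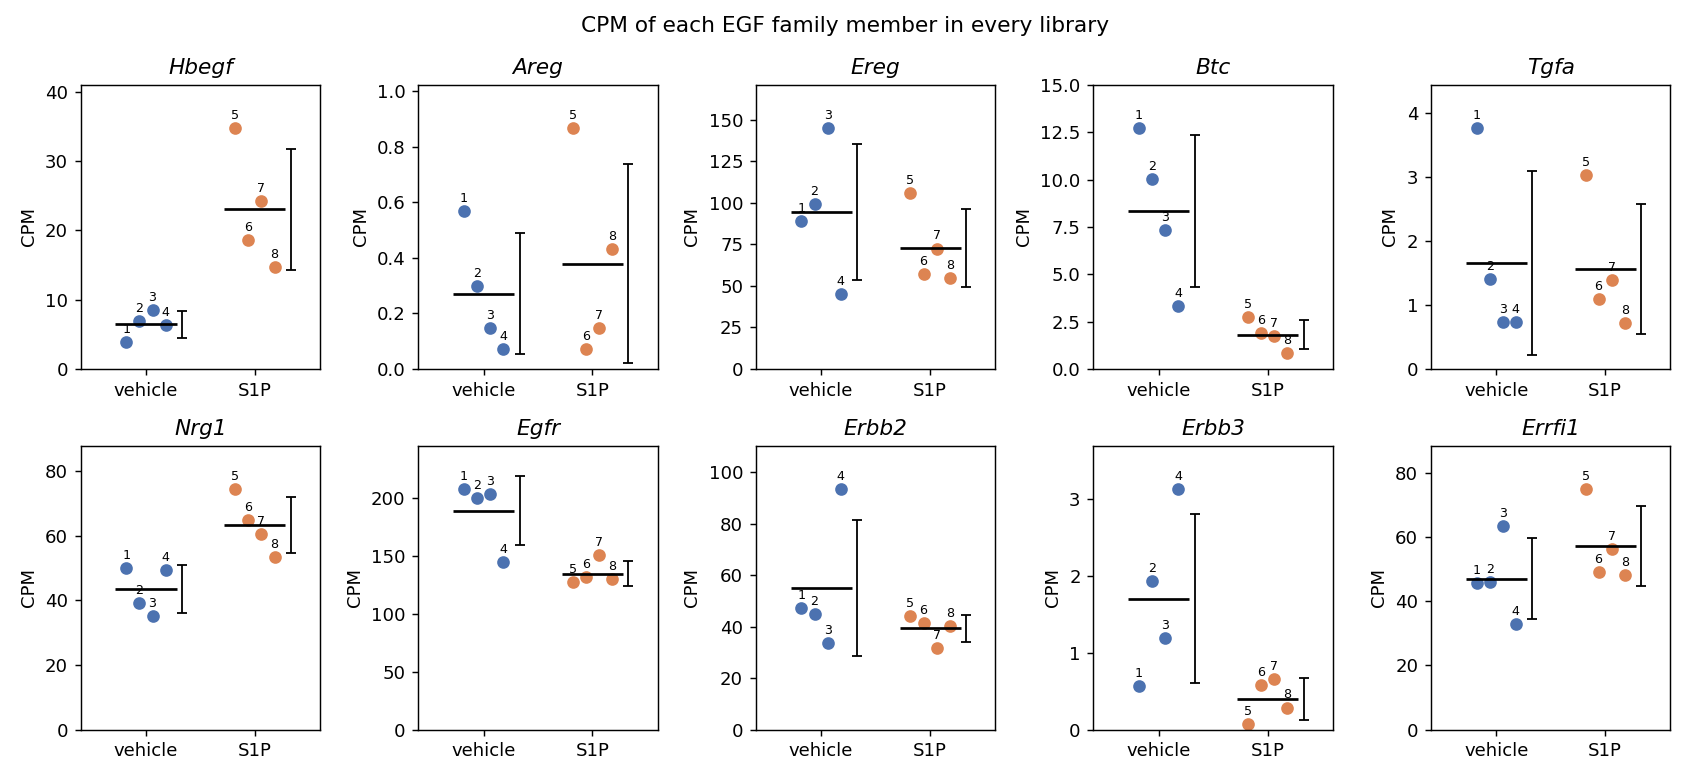
CPM (linear axis from 0, own scale per gene) of the 10 members in the 4 vehicle and 4 S1P libraries; digits are replicate numbers, horizontal lines group means and bars beside them ± 1 SD. All S1P libraries lie above all vehicle libraries for Hbegf and Nrg1 and below them for Btc, and S1P replicate 5 is the top S1P library for all 6 ligands.

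Hbegf encodes heparin-binding EGF-like growth factor, an EGFR ligand that binds heparan sulfate. Its level was 3.84, 6.97, 8.43 and 6.39 CPM in vehicle replicates 1 to 4, and 34.7, 18.5, 24.2 and 14.7 CPM in S1P replicates 5 to 8. Every S1P library lay above every vehicle library. The means were 6.41 ± 1.92 CPM in vehicle and 23.0 ± 8.72 CPM after S1P (SD, n = 4 per group). Hbegf rose 3.59-fold (log2 fold change 1.84, SE 0.32, 95% interval 1.13 to 2.56, edgeR adjusted p = 0.00847), which placed it at rank 51 of the 663 genes that rose. The call held in all 17 alternative fits, with a log2 fold change of 1.58 to 2.01 and an adjusted p of at most 0.0433 (edgeR, DESeq2 or limma). In bulk RNA, a change in the number of expressing cells and a change in RNA per cell cannot be told apart, here and below. In the table's mm9 coordinates Hbegf lies on chromosome 18 at 36664383 to 36675659, and its span overlaps no other gene of the table.

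Btc encodes betacellulin, a ligand of EGFR and ERBB4. It stood at 12.7, 10.0, 7.32 and 3.34 CPM in vehicle replicates 1 to 4 and at 2.74, 1.89, 1.76 and 0.862 CPM in S1P replicates 5 to 8. The groups did not overlap, though vehicle replicate 4, at 46 counts, came close to S1P replicate 5, at 38 counts. From 8.35 ± 4.00 to 1.81 ± 0.770 CPM (SD, n = 4 per group), Btc fell 4.59-fold (log2 fold change -2.20, SE 0.46, 95% interval -3.22 to -1.17, edgeR adjusted p = 0.018) and took rank 30 of the 344 genes that fell. The call was lost without S1P replicate 6, 7 or 8 (edgeR adjusted p = 0.0666, 0.0604 and 0.0553), at log2 fold changes of -2.22, -2.18 and -1.96, and in the edgeR test against a 1.5-fold change (adjusted p = 0.0753).

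Btc is the last of 4 EGFR ligand genes that lie in a row on chromosome 5. In mm9, Epgn (91456290 to 91464441), Ereg (91503443 to 91522875), Areg (91568441 to 91577658) and Btc (91786087 to 91832139) span 376 kb, and no other gene of the table lies wholly within that span. The neighbours differed widely in level. Epgn, which encodes epigen, had 3 to 5 counts per library and was not tested. Areg, which encodes amphiregulin, had 8, 4, 2 and 1 counts in vehicle replicates 1 to 4 and 12, 1, 2 and 6 counts in S1P replicates 5 to 8. Its groups overlapped, and 4 of 8 values were below 3 counts, so a small change could not be resolved at these counts. In a fit without the filter its log2 fold change was 0.48 (SE 0.77, edgeR adjusted p = 0.748 over 18306 genes). Gm15710, which reaches beyond this row, covers the whole span of Btc at a mean of 0.0181 CPM.

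Ereg, which encodes epiregulin, was the ligand of this row with the most counts, 618 to 1958 per library. It stood at 89.2, 99.4, 145 and 44.9 CPM in vehicle and at 106, 57.2, 72.5 and 54.8 CPM after S1P. Vehicle replicate 4 was below all S1P libraries and vehicle replicate 3 above them. The log2 fold change was -0.38 (95% interval -1.13 to 0.37, edgeR adjusted p = 0.501). Without both vehicle replicate 4 and S1P replicate 5, the log2 fold change of Ereg was -0.85 and passed the threshold (edgeR adjusted p = 0.0267). It did not pass in any of the other 16 alternatives.

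Tgfa, which encodes transforming growth factor alpha, was near the lower end of what could be tested, at 53, 19, 10 and 10 counts in vehicle and 42, 15, 19 and 10 counts after S1P. In each group 1 library, vehicle replicate 1 (3.76 CPM) or S1P replicate 5 (3.03 CPM), stood above the others, which ranged from 0.718 to 1.41 CPM. The interval of its log2 fold change ran from -1.48 to 1.30 around -0.09 (edgeR adjusted p = 0.937). Its direction turned in 4 alternatives, for example to 0.67 without vehicle replicate 1. Tgfa lies on chromosome 6 at 86145220 to 86225351 (mm9, as for all positions of genes here).

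Nrg1 encodes neuregulin 1, the only member ligand for ERBB3. Its level was 50.1, 39.2, 35.3 and 49.4 CPM in vehicle and 74.5, 64.8, 60.7 and 53.5 CPM after S1P, with every S1P library above the vehicle libraries. The log2 fold change of 0.54 (SE 0.15, 95% interval 0.20 to 0.89) did not pass the threshold (edgeR adjusted p = 0.0594). Without vehicle replicate 4 it was 0.61 and passed (edgeR adjusted p = 0.0288), as it did with DESeq2 (adjusted p = 0.0223). In all, Nrg1 passed in 4 of 17 alternatives. With limma-voom it did not (adjusted p = 0.0577), and the edgeR adjusted p reached 0.162 when 1 library was left out. Counts are per gene, so the many isoforms of Nrg1 are not separated. The gene lies on chromosome 8 at 32928300 to 33119781, and 1006 bases of its span are shared with Gm17443 (mean 1.06 CPM).

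**Figure D2:**
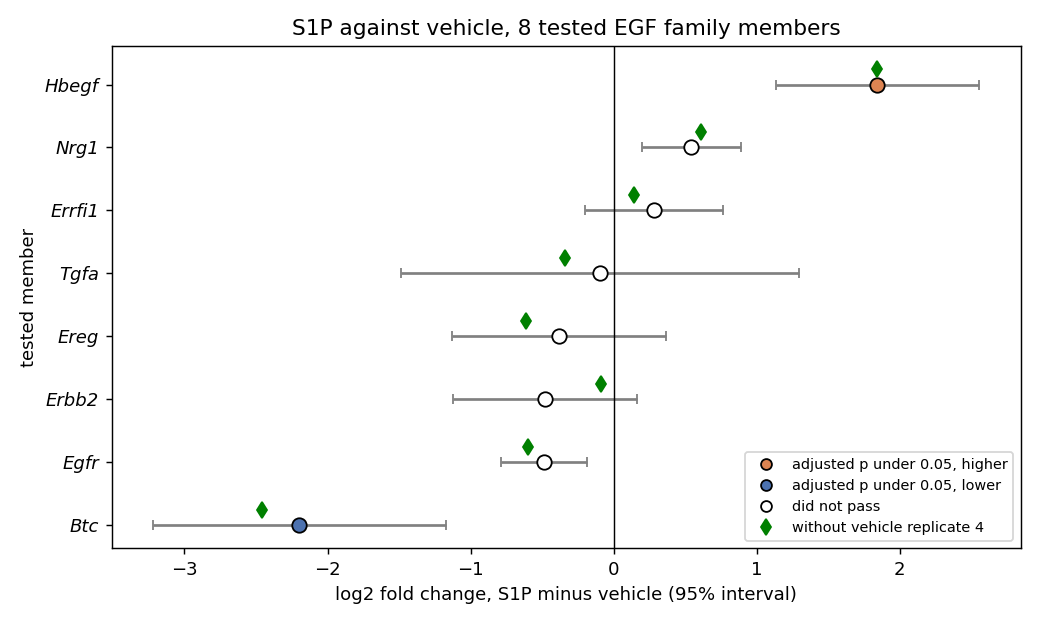
Log2 fold change (S1P minus vehicle) of the 8 tested members with its 95% interval; filled circles passed the adjusted threshold of 0.05, and green diamonds are the values without vehicle replicate 4. Hbegf at 1.84 and Btc at -2.20 are filled, and the intervals of Nrg1 and Egfr leave out 0 although neither passed over all genes.

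None of the receptors passed the edgeR test (2 were tested, and 1 of them, Egfr, had an unadjusted p under 0.05). Egfr, the receptor of the 5 EGFR ligands, was at 208, 200, 204 and 145 CPM in vehicle and at 127, 132, 151 and 130 CPM after S1P. The 3 vehicle libraries at 200 CPM or more were above all S1P libraries, and vehicle replicate 4 lay below S1P replicate 7. The log2 fold change was -0.49 (SE 0.13, 95% interval -0.79 to -0.19, edgeR adjusted p = 0.0549). Without vehicle replicate 4, Egfr fell 1.51-fold (log2 fold change -0.60, SE 0.08, edgeR adjusted p = 0.00401). It also passed with DESeq2 (adjusted p = 0.00598) and with RLE composition factors in edgeR (adjusted p = 0.0447). In all, Egfr passed in 5 of 17 alternatives. With limma-voom it did not (adjusted p = 0.0613), and the edgeR adjusted p reached 0.162 when 1 library was left out. Egfr lies on chromosome 11 at 16652006 to 16818361, and E230015J15Rik, which overlaps it, had a mean of 0.0547 CPM.

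Erbb2 stood at 47.4, 44.7, 33.8 and 93.5 CPM in vehicle and at 44.0, 41.5, 31.8 and 40.2 CPM after S1P. Vehicle replicate 4 was 1287 counts against 457 to 667 in the other vehicle libraries, and the log2 fold change of -0.48 (95% interval -1.12 to 0.16, edgeR adjusted p = 0.327) was -0.09 without it. The span of Erbb2 on chromosome 11 (98273584 to 98299230) shares 409 bases with 1810046J19Rik (mean 21.4 CPM), so reads from those bases could belong to either gene.

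Erbb3 (chromosome 10, 128004379 to 128026908) was scarce, at 8, 26, 16 and 43 counts in vehicle and 1, 8, 9 and 4 counts after S1P, and it missed the count filter. The groups overlapped through vehicle replicate 1. In the fit without the filter its log2 fold change was -2.05 (SE 0.62, edgeR adjusted p = 0.0865 over 18306 genes). Erbb3 entered 5 of the 8 filtered fits that left out 1 library through its vehicle values, so no call is read from them.

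Errfi1, the inhibitor that EGFR signalling itself induces, was at 45.7, 46.0, 63.6 and 32.8 CPM in vehicle and at 74.9, 49.1, 56.4 and 48.2 CPM after S1P. The gene lies on chromosome 4 at 150227828 to 150243201. Its groups overlapped through vehicle replicate 3. The log2 fold change was 0.28 (SE 0.21, 95% interval -0.20 to 0.76, edgeR adjusted p = 0.439), so an increase of up to 1.70-fold lies within its interval.

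Leaving out vehicle replicate 4 raised the number of members that passed from 2 to 4 of 8 (Hbegf and Nrg1 higher, Btc and Egfr lower), while the share over all genes rose from 8.5% to 15.5%. Without S1P replicate 5 as well, 5 members passed, the fifth being Ereg, beside 17.8% of all genes. S1P replicate 5 was the highest S1P library for 8 of the 10 members, including all 6 ligands and Errfi1, and for 32.8% of all tested genes. S1P replicate 8 was the lowest for 6 members, beside 21.3% of tested genes. Within the vehicle group, replicate 4 was the lowest for 6 members, among them Ereg, Btc and Egfr, and the highest for Erbb2 and Erbb3. The part of these libraries in the results was not tested beyond leaving them out.

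Scaled to the length of the merged exons, which allows levels of different genes to be compared, Ereg and Egfr were the most abundant members in vehicle, at 22.9 ± 9.94 and 16.7 ± 2.64 CPM per kb (SD, n = 4). Errfi1 at 13.1 ± 3.53 and Erbb2 at 10.5 ± 5.07 followed, and the ranges of these first 4 overlapped from each to the next. Nrg1, at 4.20 ± 0.715 (range 3.41 to 4.84), lay below all of them without overlap by this length. Btc at 1.85 ± 0.885 and Hbegf at 1.33 ± 0.397 CPM per kb overlapped each other and lay below Nrg1. Erbb3, Tgfa and Areg were at 0.283, 0.256 and 0.223 CPM per kb and overlapped. After S1P, Hbegf stood at 4.76 ± 1.80 CPM per kb and Btc at 0.401 ± 0.170, and their ranges, 3.03 to 7.18 and 0.191 to 0.607, no longer touched. Hbegf then overlapped Nrg1, at 6.12 ± 0.849. These lengths come from GENCODE M21, whereas the annotation behind the counts is not given. With the longest transcript as length, Hbegf came before Btc in vehicle (2.22 and 2.07 CPM per kb) and Errfi1 led after S1P (18.8 CPM per kb, against 17.6 for Ereg). By that length Nrg1 overlapped Erbb2 in vehicle (means 8.03 and 10.9 CPM per kb). After S1P, Nrg1 (11.7) and Hbegf (7.97) then had higher means than Erbb2 (7.86).

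**Figure D3:**
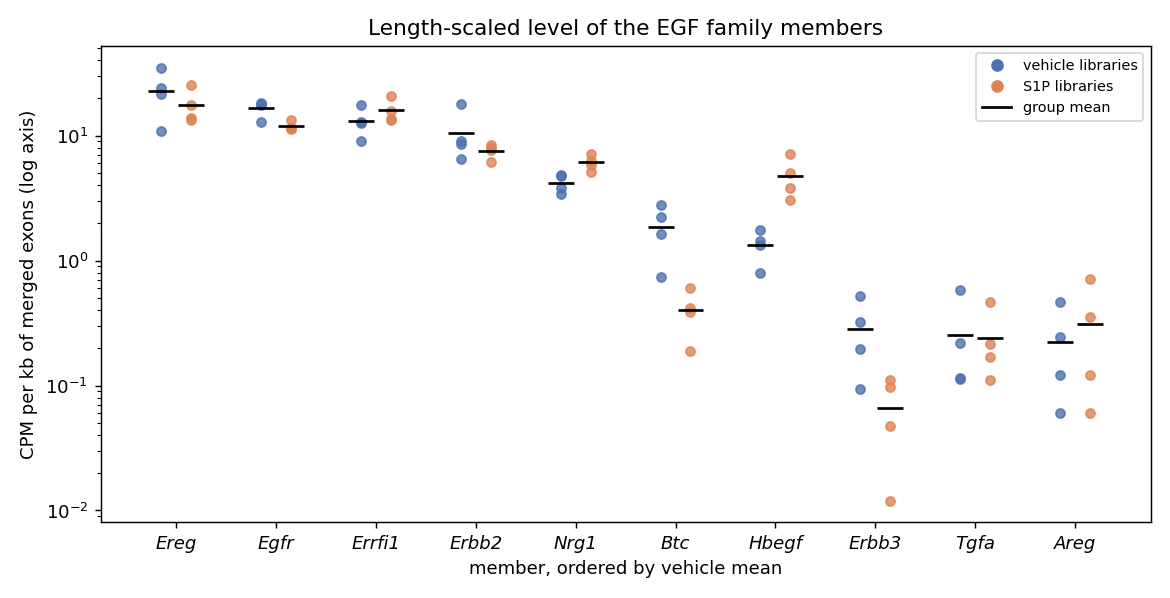
Length-scaled level (CPM per kb of merged exons, log axis) of the 10 members, ordered by vehicle mean; points are libraries and lines group means. Ereg leads in both groups, and Hbegf and Btc lie side by side in vehicle (1.33 and 1.85) and far apart after S1P (4.76 and 0.401).

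The make-up of the 5 EGFR ligand transcripts followed from these levels. Ereg held 82.3, 85.4, 90.7 and 83.0% of their summed CPM per kb in vehicle replicates 1 to 4 and 74.1, 75.6, 75.4 and 78.3% in S1P replicates 5 to 8. Hbegf held 3.02, 5.12, 4.51 and 10.1% in vehicle and 20.7, 20.9, 21.5 and 17.9% after S1P. Btc held 10.7, 7.86, 4.19 and 5.64% in vehicle and 1.75, 2.28, 1.67 and 1.12% after S1P. For all 3 the groups did not overlap, and Ereg remained the main EGFR ligand transcript in every library. Shares add up to a fixed whole, so the share of each gene depends on the others. The CPM of Ereg itself overlapped between the groups (edgeR adjusted p = 0.501). Areg and Tgfa each held at most 2.21% of the sum in any library. With the longest transcript as length, the mean Hbegf share was 8.98% in vehicle and 29.6% after S1P. These shares are a description, and no test was made of them.

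**Figure D4:**
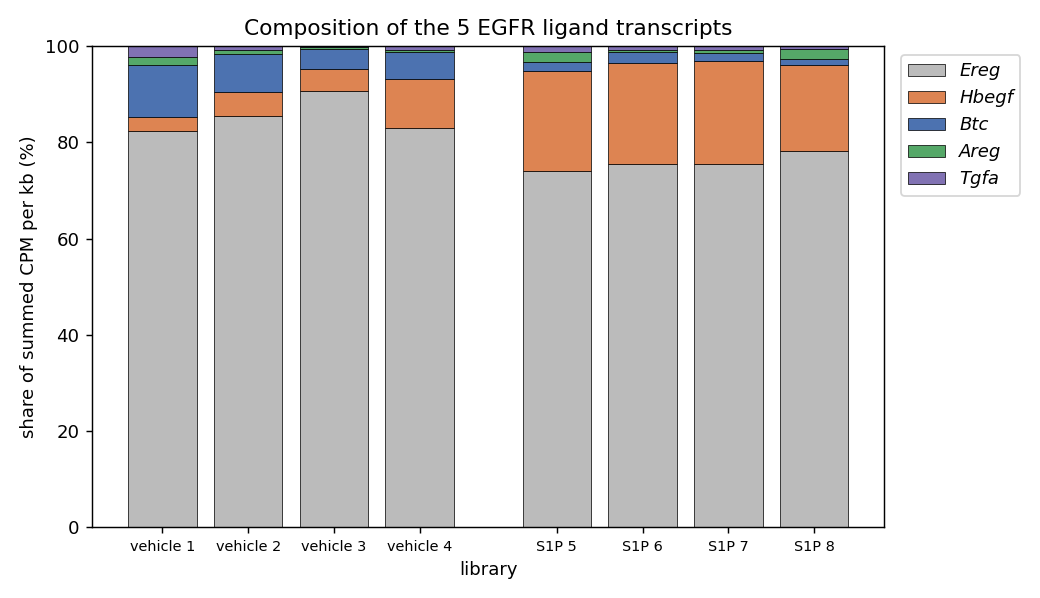
Share of each of the 5 EGFR ligand genes in their summed CPM per kb of merged exons (stacked bars to 100%), by library. Hbegf takes 3.02 to 10.1% of the bar under vehicle and 17.9 to 21.5% under S1P, and Ereg holds the greater part in all 8.

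Of the further ligands with a row in the table, Egf was tested and did not pass (0.594 to 1.11 CPM in vehicle, 0.359 to 0.800 CPM after S1P, edgeR adjusted p = 0.221). Epgn, Nrg2 and Nrg4 had at most 6 counts in a library. The ligand gene Nrg3 and the receptor gene Erbb4 had no row in the table by symbol or Ensembl ID, so their levels are unknown. Every gene of the table had counts in some library, so genes without any may have been left out of it.

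The list for ligand shedding and maturation mixed proteases with other genes, among them the metalloprotease inhibitors Timp1, Timp2 and Timp3 and the tetraspanins Cd9 and Cd82. Of its 15 tested genes, 1 rose and 14 did not pass, beside 5.6% of all tested genes that rose. The median log2 fold change over this mixed list was -0.26. None fell in this edgeR fit, beside 2.9% of all tested genes. At an unadjusted p under 0.05, 1 was higher and 3 were lower, beside 24.9% of all genes in either direction. The number lower was 2 without vehicle replicate 4, 3 with DESeq2, 4 with 1 surrogate variable and 0 with limma-voom. Over all genes those fits called 723, 804, 1006 and 328 lower, against 344 in the main fit. The riser was Adam9, a membrane protease named after its value was seen. Adam9 was at 278, 364, 402.5 and 287 CPM in vehicle and at 494, 496, 513 and 503 CPM after S1P, with no overlap (log2 fold change 0.59, SE 0.14, edgeR adjusted p = 0.0283). It lost its call in 6 of the 8 fits that left out 1 library, keeping it without vehicle replicate 3 or 4. The call was also lost in the edgeR test against a 1.5-fold change. Adam17, the main sheddase of Hbegf, Areg, Ereg and Tgfa, also named after its value was seen, was at 231, 213, 271 and 155 CPM in vehicle and 150, 114, 157 and 130 CPM after S1P. Its log2 fold change of -0.66 did not pass (edgeR adjusted p = 0.0516), and without vehicle replicate 4 it was -0.79 and passed (edgeR adjusted p = 0.00689). In all, Adam17 passed in 5 of 17 alternatives. Adam10, which cuts Btc and was named likewise, was at 256 ± 64.3 CPM in vehicle and 258 ± 22.2 CPM after S1P (SD, n = 4 per group). The metalloprotease inhibitors Timp2 and Timp3, with the highest means of the list, had log2 fold changes of -0.64 and -0.41 (edgeR adjusted p = 0.0675 and 0.461). The groups of Timp2 did not overlap, as was so for 19.1% of all tested genes. Timp2 passed in 4 of 17 alternatives. Among them were removal of S1P replicate 5 (log2 fold change -0.83, edgeR adjusted p = 0.0185) and of vehicle replicate 4 as well (-0.86, edgeR adjusted p = 0.00951). The others were 1 surrogate variable (edgeR adjusted p = 0.047) and DESeq2 (adjusted p = 0.00756). With limma-voom it did not pass (adjusted p = 0.0553), and the edgeR adjusted p reached 0.198 when 1 library was left out.

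Among 19 tested genes that inhibit the receptor or send it for breakdown, none passed the edgeR test, beside 8.5% of all tested genes. At an unadjusted p under 0.05 there were 1 higher and 4 lower, beside 24.9% of all genes in either direction. Without vehicle replicate 4, 3 were lower, beside 15.5% of all genes. Without vehicle replicate 1 and with DESeq2 there were 1 higher and 1 lower, with 1 surrogate variable 1 higher and 3 lower, and limma-voom called 0. Over all genes, 798 of 11926 were called without vehicle replicate 1. Of 11844 genes, 1771 were called with DESeq2, 2465 with 1 surrogate variable and 1025 with limma-voom. The median log2 fold change of the list was -0.11. The highest means of the list were those of Eps15, an endocytic adaptor (262 ± 59.0 CPM in vehicle and 255 ± 17.5 CPM after S1P), and Sh3kbp1, a partner of the ubiquitin ligase CBL (207 ± 40.6 and 158 ± 21.2 CPM; SD, n = 4 per group). Sh3kbp1 had a log2 fold change of -0.39 (edgeR adjusted p = 0.182), and it passed in only 3 of 17 alternatives. These were the fits without vehicle replicate 4 (-0.52, edgeR adjusted p = 0.0183), with S1P replicate 5 removed as well (-0.60, edgeR adjusted p = 0.00847) and with 1 surrogate variable (edgeR adjusted p = 0.0183).

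Of 34 tested adaptors, kinases and other proteins next to the receptor, 1 rose and 33 did not pass, beside 5.6% of all tested genes that rose, and the median log2 fold change was -0.05. None fell in this edgeR fit, beside 2.9% of all tested genes. At an unadjusted p under 0.05, 1 was higher and 5 were lower, beside 24.9% of all genes in either direction. Without vehicle replicate 4 there were 2 higher and 2 lower, beside 15.5% of all genes called. The number lower was 2 with DESeq2, 4 with 1 surrogate variable and 0 with limma-voom. Over all 11844 genes those fits called 804, 1006 and 328 lower. The riser was Pik3cb, which encodes the beta catalytic subunit of phosphoinositide 3-kinase and was named after its value was seen. It was at 10.4 to 15.2 CPM in the vehicle libraries and at 23.9 to 27.7 CPM after S1P. No vehicle library reached the S1P range (log2 fold change 0.91, SE 0.15, edgeR adjusted p = 0.00739). The call of Pik3cb held in all 8 fits that left out 1 library. It was lost in the edgeR test against a 1.5-fold change (adjusted p = 0.191). Erbb2ip, which encodes an ERBB2-binding scaffold and had a high mean in the list, had a log2 fold change of 0.31 (edgeR adjusted p = 0.269). Vehicle replicate 4 was the highest vehicle library for 16 of these 34 genes, beside 38.1% of all tested genes.

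Over the 8 libraries, genes whose log2 CPM ran closely with Hbegf were Edn1, which encodes endothelin 1 (r = 0.987, log2 fold change 1.00), and Ccdc141 (r = 0.980, log2 fold change 1.17). Both had passed the edgeR test, with adjusted p of 0.0258 and 0.023. The closest to Btc were 5033411D12Rik, Igsf10 and Klhl8 (r = 0.989, 0.989 and 0.988), of which Igsf10 had passed (log2 fold change -1.26, edgeR adjusted p = 0.0304). These likenesses are descriptions across libraries that share the treatment contrast, and 146 genes for Hbegf and 116 for Btc had an r above 0.9.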

How the data were processed

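Bulk RNA of C3H10T1/2 cells was sequenced after S1P or vehicle. The authors deposited counts by gene, with Ensembl IDs, symbols and mm9 positions. Whether the counts were brought to a common total before deposit is not known. STAR 2.5.3a and genome build mm9 were used, per the submitters' processing notes. Counting tool, annotation and strand setting were not given in the sources used here. Library totals in the table are nearly equal, and the depth before deposit is unknown.

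Columns were matched to samples by title. Genes were filtered with filterByExpr of edgeR 4.0.16 (R 4.3.3, minimum count 10), TMM factors were set, and S1P was tested against vehicle with the robust quasi-likelihood test over all 8 libraries, treatment being the only term. Log2 fold changes are S1P minus vehicle. Their standard errors and 95% intervals come from the F statistic and its degrees of freedom. Log2 CPM values used a prior count of 2. The fit was also run on simulated counts with known changes but without a deviant library, so that run cannot speak for the calls here. Alternatives were other composition factors, other filters (none, or 1 CPM in 4 libraries), DESeq2 1.42.0, limma-voom (limma 3.58.1), 1 surrogate variable (sva 3.50.0), glmTreat at 1.5-fold and left-out libraries. Length by longest transcript was added after seeing the data.

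Members and lists were chosen with earlier results of these data known. All members are named, then, from each list, up to 4 called genes by size of change, or the 2 of highest mean where fewer than 2 were called, and the 3 genes most correlated with each changed member. Some genes that this rule names are not reported here. Reading frames were taken with Biopython 1.88. No protein sequences were used.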

Additional observations from a re-analysis of the deposited data

Results flagged for a closer look

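In 22 genes (10 members and 12 pathway genes), each group of 4 libraries was examined for a single value far from the other 3, by Dixon's ratio of gap to range against its 95% critical value. Chance flags about 1 in 20 groups, and 3 of 44 were flagged. Egfr stood at 144.6 CPM in vehicle replicate 4, where replicates 1 to 3 ranged from 200.2 to 208.0 CPM (ratio 0.877). Timp2, a metalloprotease inhibitor, stood at 2032 CPM in vehicle replicate 1 (next 1519 CPM, ratio 0.856) and at 1411 CPM in S1P replicate 5 (next 930 CPM, ratio 0.899).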

How the results depend on the processing

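Hbegf kept its direction and call under all 17 alternatives, Btc its direction under all 17 and its call under 13. Over all genes, 663 were higher and 344 lower. These counts were 1459 and 1006 with 1 surrogate variable, 150 and 35 in glmTreat at 1.5-fold, 1178 and 934 with vehicle replicate 4 and S1P replicate 5 both removed, and 333 to 1133 higher and 101 to 723 lower when 1 library was left out. DESeq2 called 804 lower. Members higher numbered 2 with DESeq2, with 1 surrogate variable and with those 2 libraries removed, and 1 to 2 when 1 library was left out (2 without vehicle replicate 4). Members lower numbered 2 with RLE factors, DESeq2 or 1 surrogate variable, 0 in glmTreat, 3 without both libraries, and 0 to 2 when 1 library was left out (0 without S1P replicate 6, 7 or 8). The log2 fold change of Tgfa was 0.043 with limma-voom and -0.64 to 0.67 when 1 library was left out. That of Errfi1 was -0.014 without both libraries. That of Adam10 was -0.0072 with RLE factors or DESeq2, -0.054 with 1 surrogate variable, -0.16 without both libraries and -0.12 to 0.15 when 1 was left out. Over the same left-out fits, Timp3 ranged from -0.58 to 0.056 and Eps15 from -0.19 to 0.038. The cause was not tested. No paired analysis was possible because the groups share no replicate numbers. Depth limits Areg (1 to 12 counts per library), Erbb3 (1 to 43) and Tgfa (10 to 53), and also Btc (12 to 179).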
